A study of Homo sapiens with 72 samples.

Results

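Secreted and membrane proteins are folded in the endoplasmic reticulum (ER) by chaperones such as BiP (encoded by HSPA5) and by protein disulfide isomerases, after entering through the SEC61 translocon. Proteins that fail to fold are returned to the cytosol and destroyed by ER-associated degradation. When unfolded proteins accumulate, the sensors IRE1 (ERN1), ATF6 and PERK start the unfolded protein response (UPR), in which IRE1 splices the XBP1 mRNA, ATF6 and XBP1 turn on chaperone genes, and PERK slows translation and allows ATF4 to be made. Here 33 genes of this machinery were followed out of 44659 names in a count table. They were picked by symbol and role and comprised 11 luminal chaperones and co-chaperones, 8 disulfide isomerases and oxidases, 5 factors of ER-associated degradation, 3 sensors or transcription factors and 6 subunits of the translocon and its associated complex.

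The table held read counts from 72 QuantSeq libraries, which sample mRNA 3′ ends, made from the cytoplasm of A375, a human melanoma cell line. In the siRNA experiment, cells received a pool of siRNAs against CTU2 (siCTU2) or the luciferase siRNA siGL2 for 42 h; CTU2 is part of the enzyme that thiolates the wobble base of tRNAs reading AAA, GAA and CAA codons. In the medium experiment, cells spent 18 h without glutamine (mQ) or with it (pQ). All cells then received triptolide (25 µM), which stops transcription, alone (T arm) or with cycloheximide (100 µg/ml), which stops translation (TCHX arm), and were collected at 0, 3 or 5 h with 3 replicates a group, so that even the 0 h cells had briefly met the drugs. The labels did not say whether replicates were separate cultures, and p-values measure the spread between these libraries.

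Libraries held 5987692 to 15534331 counts, and the 33 genes took 0.603 to 0.828% of the counts at 0 h. CTU2 itself was at 2.95, 1.01 and 1.32 CPM (each count scaled by its library's total) in siCTU2 and 21.1, 22.0 and 24.2 CPM in siGL2 cells (T arm, 0 h). The library labelled siCTU2 TCHX 5 h replicate 3 went against its label with 10.4 CPM. It was also one of 3 replicate 3 libraries, with mQ T 5 h and pQ TCHX 0 h, that had counts for 19896 to 20364 genes when the others had 15507 to 17495. The leukocyte marker PTPRC was at 31.1 to 32.6 CPM in these 3 libraries and at most 0.76 CPM in the others, while PECAM1, EPCAM and CDH1 were at most 0.79 CPM in all libraries and COL1A1 at most 2.57 CPM, highest in the same 3. The part of this in the values below was not tested. The melanocyte marker SOX10 was present in every library (25.4 to 424 CPM), whereas MLANA and TYR were at 0 in 17 and 16 libraries. MITF, the melanocyte transcription factor, was lower with both treatments, at a mean of 90.6 CPM over all siCTU2 and 247 CPM over all siGL2 libraries, and 118 CPM in mQ and 259 CPM in pQ. Other lineage markers did not all move with MITF, on means over the same libraries. SOX10 was at 283 CPM in siCTU2 against 233 in siGL2, and at 218 in mQ against 186 in pQ. In the same order, DCT was at 46.1 against 24.9 and 68.9 against 85.3 CPM. PMEL was at 3.57 against 4.72 and 6.25 against 4.22, and S100B at 319 against 340 and 337 against 335. These means pool both arms and all times. The part of MITF in the ER results was not tested. Of the ER genes, CANX (0 to 10 counts per library), HYOU1 (0 to 17) and TXNDC5 (0 to 1) were near 0 under their own names. A second row for an extra copy of CANX held 18 to 487 counts, so reads of CANX may be divided between rows, and the levels of these 3 genes are not interpreted. The other 30 genes were tested at 0 h.

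Several of these genes share promoter elements. The choice of members by symbol and role used no sequence, but the roles include the UPR. The shares below are therefore a description and not a test. The ER stress response element (ERSE) is read by ATF6 together with NF-Y and consists of CCAAT, 9 bases and CCACG. ERSE-II is ATTGG, 1 base and CCACG, the UPR element (UPRE) is TGACGTGG, and the C/EBP-ATF response element (CARE), a site for ATF4, is TGATG, 1 base and AA. Both strands were searched from 250 bases before to 50 after the start of each gene (RefSeq, GRCh38.p14), for the 32 members with a promoter entry. The stretches of 6 genes described in detail are shown as examples of these elements, with the matched letters in capitals.

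HSPA5 (chr9:125241381-125241419, minus strand, ERSE): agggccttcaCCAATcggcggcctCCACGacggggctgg
XBP1 (chr22:28800593-28800631, minus strand, ERSE): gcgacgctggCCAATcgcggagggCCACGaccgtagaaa
CALR (chr19:12938374-12938412, plus strand, ERSE on the other strand): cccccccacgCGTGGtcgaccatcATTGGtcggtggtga
ERO1B (chr1:236282173-236282208, minus strand, ERSE on the other strand): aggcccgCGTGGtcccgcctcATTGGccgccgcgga
SDF2L1 (chr22:21642104-21642134, plus strand, ERSE-II on the other strand): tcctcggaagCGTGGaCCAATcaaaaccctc
HERPUD1 (chr16:56931956-56932045, plus strand, CARE on the other strand, then ERSE-II): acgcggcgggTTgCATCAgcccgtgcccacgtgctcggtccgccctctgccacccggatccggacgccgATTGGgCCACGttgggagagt

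An ERSE was present in 8 of the 32 members (25%), namely CALR, CANX, CRELD2, ERO1B, HSP90B1, HSPA5, PDIA6 and XBP1, and in 0.0916% of the 27305 genes of the promoter table. ERSE-II was present in HERPUD1, HYOU1 and SDF2L1 (9.375% of members, 0.0696% of genes), and the UPRE in HYOU1, SSR3, TXNDC11 and TXNDC5 (12.5% of members, 0.927% of genes). CARE was present in HERPUD1 alone among the members (3.125%) and in 4.457% of genes. HERPUD1 was thus the member that held both an ERSE-II and a CARE in this window. These are matches of letters, not measured binding sites.

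The members were also examined for GAA and AAA, which are among the codons that the CTU2 enzyme serves, while CAA was not counted. GAA and AAA together made up a median of 6.383% of codons over the 33 members and 4.545% over 19716 human coding sequences. Glutamate and aspartate together made up a median of 13.28% of codons in the members and 11.39% in all genes. The 3 members richest in these residues were the calcium-binding chaperones CALR (26.14%), CANX (23.14%) and HSP90B1 (21.3%).

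CTU2 depletion was first compared with the control siRNA at 0 h in the T arm, with edgeR's quasi-likelihood test adjusted over all genes tested (threshold 0.05). CALR and PDIA3, the lectin chaperone calreticulin and its partner disulfide isomerase ERp57, were about 4.39-fold and 3.93-fold lower in siCTU2 cells, whereas HSPA5 did not pass the threshold. Of 30 members, 8 were higher and 4 lower, and 17.8% of all 12292 genes tested were higher and 18.2% lower. The median log2 fold change was 0.07 over the members and 0.00 over all genes. By role, 1 chaperone was higher and 2 were lower of 9, 3 disulfide isomerases and oxidases were higher and 1 lower of 7, 2 degradation factors were higher and 1 lower of 5, 1 of 3 sensors and transcription factors was higher, and 1 of 6 translocon subunits was higher. In bulk RNA, fewer cells with a transcript and less transcript per cell cannot be told apart.

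Among the chaperones, CALR (chromosome 19, 12938578 to 12944489, plus strand, GRCh38) was at 242, 230 and 226 CPM in siCTU2 and 1021, 999 and 1039 CPM in siGL2 cells. The groups stood far apart, with means of 233 ± 8.17 and 1020 ± 20.3 CPM (SD, n = 3). On the log2 scale CALR changed by -2.14 ± 0.06 (SE; edgeR adjusted p = 3.74e-14). DNAJB11, a co-chaperone of BiP, was at 127, 103 and 123 CPM in siCTU2 and 164, 165 and 176 CPM in siGL2 cells. Its groups did not overlap and its log2 fold change was -0.52 (edgeR adjusted p = 0.000131). SDF2L1, a further cofactor of the BiP cycle, rose slightly, from 185, 179 and 172 CPM in siGL2 to 196, 213 and 211 CPM in siCTU2 cells (log2 fold change 0.21, edgeR adjusted p = 0.0348). HSPA5 reached 1078, 1099 and 1182 CPM in siCTU2 and 1055, 1074 and 1044 CPM in siGL2 cells. The siCTU2 values lay just above those of siGL2, with a log2 fold change of 0.08 that did not pass the threshold (edgeR adjusted p = 0.295). The other chaperones HSP90B1, DNAJB9, DNAJC3, MANF and CRELD2 did not pass it either, with log2 fold changes from -0.17 to 0.37.

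**Figure D1:**
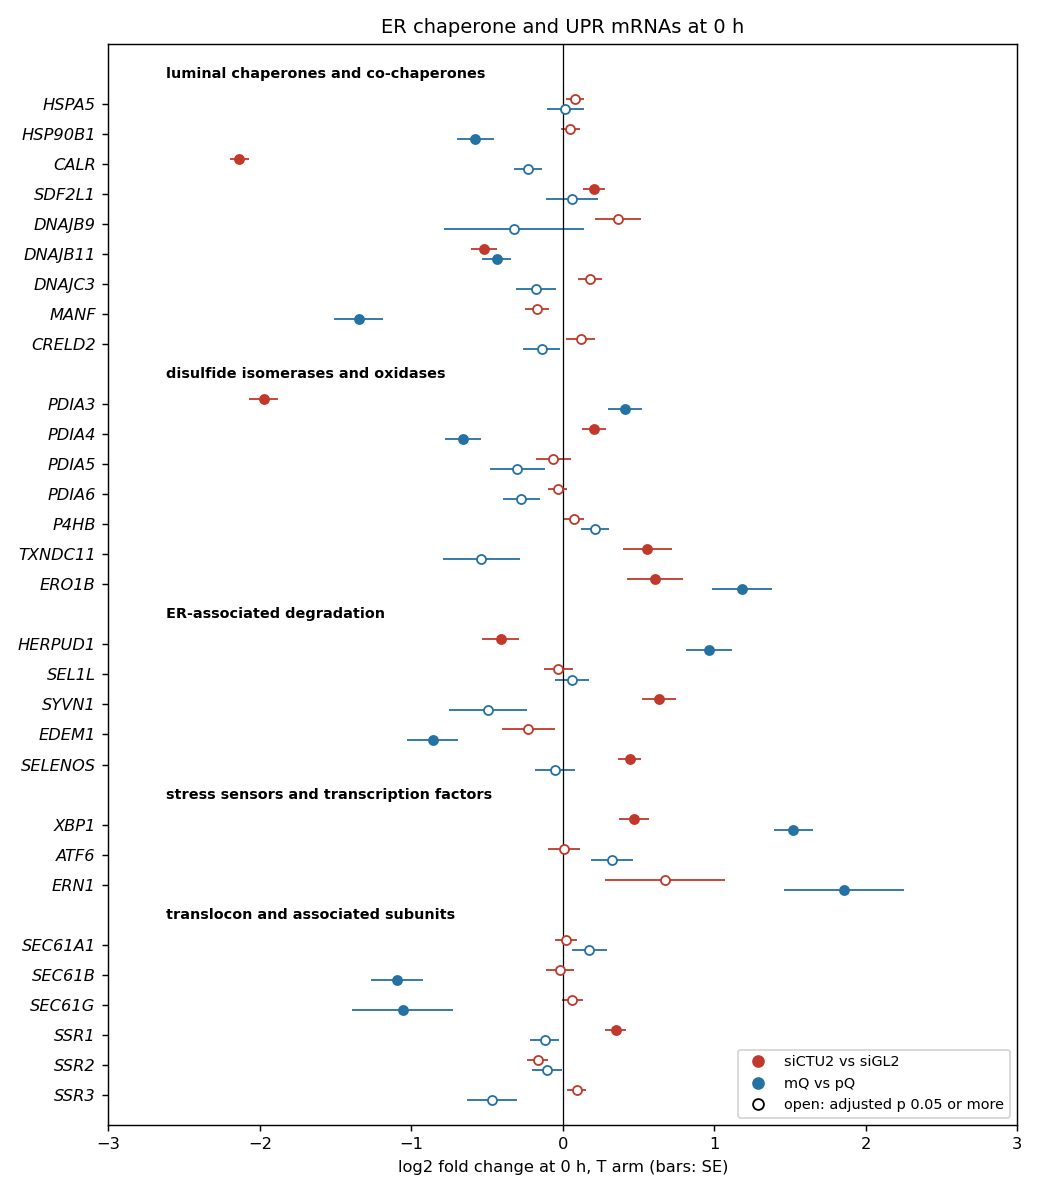
Log2 fold change at 0 h in the T arm for the 30 tested members, grouped by role, for siCTU2 against siGL2 (red) and mQ against pQ (blue). Bars are standard errors and filled points passed the threshold; CALR and PDIA3 lie at -2.14 and -1.97 in red, and XBP1 and ERN1 at 1.52 and 1.86 in blue.

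Among the disulfide isomerases, PDIA3 (chromosome 15, 43746394 to 43773279, plus strand) was at 49.5, 59.7 and 65.9 CPM in siCTU2 and 225, 225 and 239 CPM in siGL2 cells. The groups were again well separated (58.3 ± 8.25 against 230 ± 8 CPM, SD, n = 3), and on the log2 scale PDIA3 changed by -1.97 ± 0.10 (SE; edgeR adjusted p = 2.96e-11). The isomerases PDIA5, PDIA6 and P4HB did not share the decrease, with log2 fold changes from -0.06 to 0.07 that did not pass the threshold. TMX1, from the list of other thioredoxin-fold proteins described below, did fall. ERO1B, which reoxidises the isomerases, was higher, at 12.7, 13.8 and 14.3 CPM in siCTU2 and 8.78, 7.91 and 10.1 CPM in siGL2 cells (log2 fold change 0.61, edgeR adjusted p = 0.0161). TXNDC11 was at 25.3, 21.1 and 27.5 CPM against 15.7, 20.1 and 14.3 CPM (0.56, edgeR adjusted p = 0.0117). PDIA4 was at 195, 180 and 204 CPM against 164, 179 and 159 CPM (0.21, edgeR adjusted p = 0.0493). The groups of these 3 genes did not overlap, although those of PDIA4 and TXNDC11 nearly touched.

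The factors of ER-associated degradation moved both ways. SYVN1, the ubiquitin ligase HRD1, was at 53.2, 48.0 and 47.5 CPM in siCTU2 and 35.0, 29.3 and 31.4 CPM in siGL2 cells (log2 fold change 0.63, edgeR adjusted p = 0.000262). SELENOS, a membrane selenoprotein of the same complex, was at 164, 171 and 158 CPM against 116, 127 and 119 CPM (0.44, edgeR adjusted p = 0.000203). HERPUD1, a membrane scaffold for degradation, was lower, at 34.8, 37.0 and 40.4 CPM against 45.3, 58.2 and 45.4 CPM (-0.41, edgeR adjusted p = 0.0132). In none of the 3 did the groups overlap. SEL1L and EDEM1 did not pass the threshold (-0.03 and -0.23).

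XBP1 was the sensor or transcription factor that passed the threshold, at 81.1, 93.6 and 79.0 CPM in siCTU2 and 56.8, 66.0 and 59.8 CPM in siGL2 cells (log2 fold change 0.47 ± 0.10 SE, edgeR adjusted p = 0.000977). Counts cover the 3′ end and do not separate its spliced from its unspliced form. ERN1 was low, at 2.95, 5.26 and 3.19 CPM against 1.73, 3.50 and 1.85 CPM, and its overlapping groups did not pass the threshold (0.67, edgeR adjusted p = 0.197). ATF6 was at 46.5, 45.9 and 48.8 CPM against 50.8, 45.3 and 44.2 CPM, with a log2 fold change of 0.01 (edgeR adjusted p = 0.973). Of the translocon genes, SSR1, a subunit of the translocon-associated protein complex, was higher at 287, 274 and 298 CPM against 225, 223 and 226 CPM (0.35, edgeR adjusted p = 0.000586). SEC61A1, SEC61B, SEC61G, SSR2 and SSR3 ranged from -0.17 to 0.09 and did not pass.

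In the TCHX arm at 0 h, 11 of the 12 members kept their direction and 10 passed the threshold again. There, CALR had a log2 fold change of -1.98 and PDIA3 of -1.59, TXNDC11 missed the threshold, and PDIA4 turned to -0.02. In that arm 17 members passed, of which 7 were higher and 10 lower, beside 37.2% of all genes in either direction. Leaving out single T arm libraries, CALR, PDIA3, DNAJB11, SYVN1, SELENOS, XBP1 and SSR1 passed in each of the 6 fits, whereas 5 calls were lost in at least 1 fit. TXNDC11 (0.46 without siCTU2 replicate 3, 0.50 without siGL2 replicate 1, 0.46 without siGL2 replicate 3), SDF2L1 (0.18 to 0.22 in 5 fits), ERO1B (0.53 to 0.59 in 3 fits), HERPUD1 (-0.37 without siCTU2 replicate 1 and -0.28 without siGL2 replicate 2) and PDIA4 (0.16 to 0.19 in 4 fits) missed the threshold there.

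An siRNA can also lower transcripts that pair with its seed, which is guide bases 2 to 8. The sense strands of the CTU2 siRNAs are shown with the letters that match the seed site in capitals, because CALR and PDIA3 fell most.

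siCTU2#1: cuaucaagcucAUGACCAa
siCTU2#2: gcgugaacaugAAGGACUu

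CTU2 matched all 19 bases of both. CALR held 0 seed sites for either siRNA, while PDIA3 held 1 for the first and 3 for the second, and HSPA5 held 2 for the first. A site was found in 9 of 33 members (27.27%) for each siRNA, and in 22.67% and 25.81% of 20020 transcripts. The part of such pairing in the measured levels was not tested.

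Glutamine removal was examined in the same way at 0 h. XBP1, ERN1, ERO1B, HERPUD1 and PDIA3 rose without glutamine, and the secreted chaperone MANF, the translocon subunits SEC61B and SEC61G, EDEM1, PDIA4, HSP90B1 and DNAJB11 fell. HSPA5 had nearly equal means in this arm. Of 30 members, 5 were higher and 7 lower, beside 12.5% higher and 12.4% lower of all 12374 genes tested. The median log2 fold change was -0.16 over the members and 0.01 over all genes. By role, 3 of 9 chaperones were lower and 0 higher, 2 isomerases or oxidases were higher and 1 lower of 7, 1 degradation factor was higher and 1 lower of 5, 2 of 3 sensors and transcription factors were higher, and 2 of 6 translocon subunits were lower.

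XBP1 (chromosome 22, 28794555 to 28800597, minus strand) was at 160, 134 and 184 CPM in mQ and 54.4, 59.3 and 58.9 CPM in pQ cells, 2.87-fold higher (log2 fold change 1.52, SE 0.13, edgeR adjusted p = 1.85e-05). ERN1, which encodes the IRE1 sensor, was at 8.17, 4.47 and 12.8 CPM in mQ and 1.72, 3.13 and 2.35 CPM in pQ cells. Its mQ libraries spread widely but all lay above pQ (1.86, SE 0.40, edgeR adjusted p = 0.00614). ATF6 was at 51.0, 57.1 and 66.8 CPM against 54.2, 43.3 and 47.5 CPM, overlapping between groups (0.32, edgeR adjusted p = 0.104).

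HERPUD1 (chromosome 16, 56932142 to 56944864, plus strand) was at 111, 88.6 and 134 CPM in mQ and 51.0, 61.7 and 64.0 CPM in pQ cells (log2 fold change 0.96, edgeR adjusted p = 0.00126). EDEM1, a lectin that directs glycoproteins to degradation, went the other way, at 15.1, 11.4 and 14.2 CPM against 23.8, 28.3 and 24.2 CPM (-0.86, edgeR adjusted p = 0.00426). The remaining degradation genes SEL1L, SYVN1 and SELENOS did not pass the threshold (0.06, -0.49 and -0.05).

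ERO1B (chromosome 1, 236214681 to 236282019, minus strand) was at 14.2, 18.0 and 19.9 CPM in mQ and 8.48, 7.23 and 8.11 CPM in pQ cells (1.18, edgeR adjusted p = 0.00183). PDIA3, which had fallen with siCTU2, was at 249, 272 and 226 CPM against 210, 175 and 198 CPM (0.41, edgeR adjusted p = 0.0196). PDIA4 was lower, at 148, 111 and 148 CPM against 218, 225 and 222 CPM (-0.66, edgeR adjusted p = 0.00286). The groups of these 3 genes did not overlap.

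**Figure D2:**
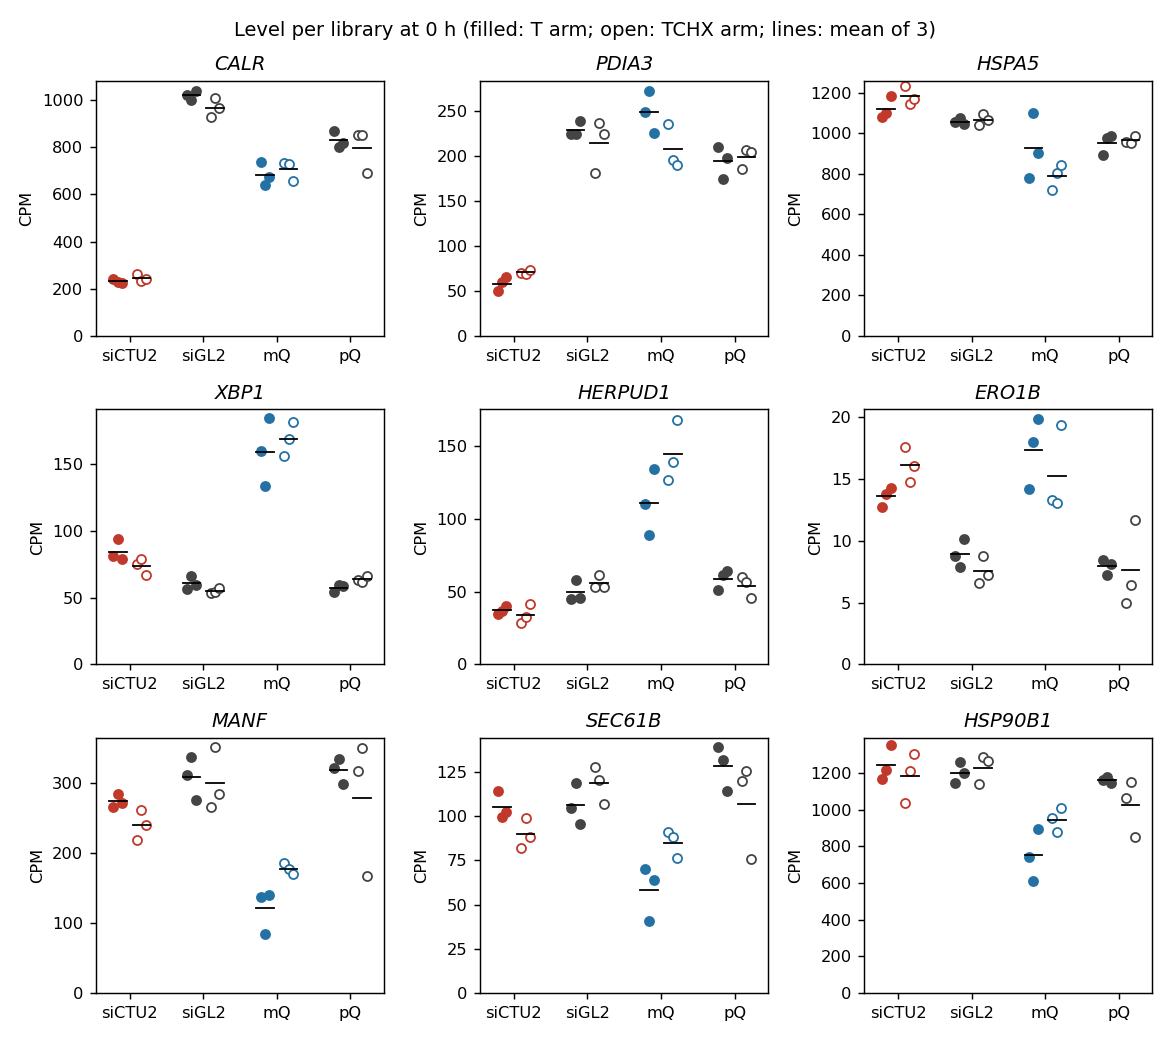
CPM of 9 members in each 0 h library of the 4 conditions, with filled points for the T arm, open points for the TCHX arm and lines at the mean of 3 libraries. CALR and PDIA3 are low in siCTU2 in both arms and XBP1 and HERPUD1 are high in mQ in both arms, whereas the mQ decreases of MANF, SEC61B and HSP90B1 are smaller in the TCHX arm.

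The chaperones and translocon subunits that changed were all lower in mQ. MANF (chromosome 3, 51385291 to 51389397, plus strand) was at 137, 84.4 and 140 CPM in mQ and 321, 334 and 299 CPM in pQ cells, 2.55-fold lower (log2 fold change -1.35, SE 0.16, edgeR adjusted p = 0.000244). HSP90B1, the ER member of the HSP90 family, was at 745, 614 and 897 CPM against 1163, 1180 and 1146 CPM (-0.58, edgeR adjusted p = 0.00605). DNAJB11 was at 119, 112 and 111 CPM against 163, 160 and 157 CPM (-0.44, edgeR adjusted p = 0.00747). None of these groups overlapped, and the mQ spread of MANF and HSP90B1 came with a low replicate 2. SEC61B was at 69.9, 40.6 and 64.0 CPM in mQ and 139, 132 and 114 CPM in pQ cells (-1.10, edgeR adjusted p = 0.00121). SEC61G was at 97.0, 41.9 and 165 CPM against 212, 222 and 221 CPM (-1.06, SE 0.33, edgeR adjusted p = 0.0357). Replicate 2 was again the lowest of the mQ libraries, and the groups did not overlap. In mQ T replicate 2, SEC61G had 440 counts at 0 h and 1324 at 3 h, in libraries of 10511429 and 6565272 counts. HSP90B1 (6451 and 6713), MANF (887 and 1083) and SEC61B (427 and 586) also had more counts at 3 h, despite triptolide. DNAJB11 had fewer (1177 and 808). Such rises were not limited to replicate 2. In replicate 1, SEC61G had 784 and 1965 counts, HSP90B1 6018 and 9746, MANF 1110 and 1317, and SEC61B 565 and 953. Those libraries held 8081022 and 8831367 counts. In replicate 3, SEC61G had 1472 and 1561, HSP90B1 7979 and 8854, and SEC61B 569 and 654, whereas MANF had 1246 and 1109. In the fit without the mQ replicate 2 library at 0 h, MANF, HSP90B1, DNAJB11, SEC61B and SEC61G passed the threshold again, as described below. Why these counts rose was not tested. HSPA5 was at 781, 1097 and 903 CPM against 892, 977 and 986 CPM, so that mQ lay on both sides of pQ (0.02, edgeR adjusted p = 0.931).

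The TCHX arm gave fewer calls for this contrast. There, 10 of the 12 members kept their direction but 3 passed, namely XBP1 (1.42), ERN1 (1.89) and HERPUD1 (1.44). Calls were fewer over the whole table too, with 6.47% of all genes past the threshold in this arm and 20.1% without the pQ replicate 3 library described next. MANF was at -0.63 (edgeR adjusted p = 0.108), SEC61B at -0.31, HSP90B1 at -0.09 and SEC61G at -0.04, while PDIA4 and EDEM1 turned to 0.04 and 0.34. This arm contains the pQ replicate 3 library with extra genes, in which MANF was at 167 CPM and the other pQ libraries at 317 and 350 CPM. Without it, 7 of the 12 passed, with DNAJB11 (-0.40), MANF (-0.88), SEC61B (-0.50) and ERO1B (1.44) in addition, but HSP90B1 (-0.20), SEC61G (-0.25), PDIA4 (-0.15), EDEM1 (0.02) and PDIA3 (0.11) still did not. HSPA5 was then lower in mQ (-0.25, edgeR adjusted p = 0.0449). With all libraries, the contrast differed between arms past the threshold for 0 genes in either experiment by edgeR, and for 2 genes, neither a member, in the medium experiment without mQ T replicate 2. At an unadjusted p under 0.05, it differed for 6 of 30 members and 983 of 13089 genes in the siRNA experiment. In the medium experiment it differed for 10 of 30 members and 1366 of 13014 genes. The medium counts were 6 of 30 and 806 of 13291 without pQ TCHX replicate 3, and 6 of 30 and 728 of 13343 without mQ T replicate 2. When single T arm libraries were left out, PDIA3 (0.42 without mQ replicate 1, 0.34 and 0.43 without pQ replicates 2 and 3) and SEC61G (-1.02 without mQ replicate 1, -1.05 to -1.08 without each pQ library) missed the threshold, and the other 10 passed in each of the 6 fits.

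The experiments share no libraries, so their contrasts could be compared directly. Of the 30 members, 6 passed in both experiments, 6 in siCTU2 alone, 6 in mQ alone and 12 in neither. Of the 11968 genes tested in both, 10.6% passed in both, 25.8% in siCTU2 alone, 14.7% in mQ alone and 49% in neither. DNAJB11 fell and ERO1B and XBP1 rose in both, while PDIA3, PDIA4 and HERPUD1 moved in opposite directions. The difference of the contrasts, siCTU2 minus siGL2 less mQ minus pQ, passed for 14 members. Of these 10 were higher and 4 lower, beside 15.9% higher and 16.1% lower of 12950 genes. The 4 lower were PDIA3 (-2.39), CALR (-1.91), HERPUD1 (-1.38) and XBP1 (-1.05), with edgeR adjusted p from 4.04e-10 to 9.75e-05. The 10 higher were MANF (1.18), SYVN1 (1.13), SEC61G (1.12), TXNDC11 (1.09), SEC61B (1.08), PDIA4 (0.86), HSP90B1 (0.62), SSR3 (0.56), SELENOS (0.49) and SSR1 (0.47). Without replicate 1 of every group, 7 members and 14% of all genes passed. In the TCHX arm 11 members, 4 higher and 7 lower, and 23.2% of all genes passed. Against the T arm, the mQ minus pQ contrast there shifted by 1.02 for SEC61G, 0.79 for SEC61B and 0.77 for SYVN1. MANF shifted by 0.73, PDIA4 by 0.70, HSP90B1 by 0.49 and SSR3 by 0.37. SELENOS shifted by 0.30, TXNDC11 by 0.26 and SSR1 by -0.11. None of these shifts passed the threshold by edgeR.

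The rest of the pathway was counted from 7 further lists, to be read beside the shares of all genes given above (17.8% higher and 18.2% lower with siCTU2, 12.5% higher and 12.4% lower in mQ). In the PERK and ATF4 arm, 6 of 9 tested genes were higher and 2 lower in mQ, with log2 fold changes of 6.05 for the glutathione-degrading enzyme CHAC1, 3.20 for TRIB3, 3.16 for DDIT3 (CHOP), 3.00 for ATF3 and 2.61 for ATF4. With siCTU2 the same list held 2 higher and 4 lower genes, among them ATF3 (1.09) and EIF2AK3, which encodes PERK (-0.87). The median of this list was 2.61 in mQ and -0.19 in siCTU2. Other sensors and their activating proteases had 2 higher and 1 lower of 6 with siCTU2 (MBTPS1 -0.63) and 0 past the threshold in mQ by edgeR, where 1 had an unadjusted p under 0.05. Other luminal chaperones had 4 higher and 3 lower of 19 with siCTU2 (RCN2, a calcium-binding protein, -2.34) and 4 higher and 2 lower in mQ (PPIB, a proline isomerase, -1.21). Other thioredoxin-fold proteins had 3 higher and 4 lower of 12 with siCTU2 (TMX1 -1.71) and 2 higher and 3 lower in mQ (TMX1 -0.74). Other degradation factors had 2 higher and 6 lower of 17 with siCTU2 (FAF2 -1.11) and 1 higher and 4 lower in mQ (OS9 0.71). Other translocation genes had 5 higher and 0 lower of 17 with siCTU2 (SEC61A2 0.68) and 0 higher and 6 lower in mQ (SPCS2, of the signal peptidase, -0.85). N-glycosylation genes had 7 higher and 1 lower of 15 with siCTU2 (MOGS, the first glucosidase, 0.72) and 3 higher and 3 lower in mQ (OST4, of the oligosaccharyltransferase, -0.64). RPN2 had the largest changes of that list (2.14 and -4.37) at low, widely spread levels, with 7.19 ± 6.62 CPM in siCTU2, 1.58 ± 1.14 CPM in siGL2 and 20.9 ± 28.6 CPM in pQ cells (SD, n = 3).

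How fast these mRNAs were lost was measured after triptolide. Because all unstable mRNAs fall, counts were scaled to genes that rose relative to the rest (198 in the siRNA and 82 in the medium experiment, none of them a member), and each change is relative to those genes. XBP1 and HERPUD1 fell furthest in these terms, and SDF2L1, SEC61A1, HSP90B1 and SSR1 least. In the T arm at 3 h, 10 members in siCTU2, 6 in siGL2, 17 in mQ and 15 in pQ were lower than at 0 h (edgeR, threshold 0.05, 30 or 31 tested), beside 36%, 28.5%, 55% and 54.5% of all genes. At 5 h the counts were 23, 8, 11 and 11 members, beside 63.5%, 47.3%, 43.4% and 51.4% of all genes. No member was higher at either time on this scale. Replicate 3 stood apart at 5 h in both arms. In the T arm, MANF had 2763, 3809 and 429 counts in siCTU2, 2810, 3399 and 780 in siGL2, and 3711, 3160 and 533 in pQ. SEC61G had 2342, 3856 and 268, then 2509, 3249 and 419, and 3001, 2535 and 240 in the same order. In mQ, the replicate 3 library with extra genes held 2375 and 2252. Other members, such as SDF2L1, kept the most in replicate 3, as given below. These fits had no replicate term (see the replicate block at the end). The median change of the members at 5 h was -0.70, -0.49, -0.40 and -0.53 on the log2 scale, and that of all genes -0.89, -0.72, -0.60 and -0.74. With ordinary TMM scaling, the median of all genes at 5 h moved to between -0.05 and 0.02, and the members past the threshold were 6 higher and 4 lower in siCTU2, 7 and 3 in siGL2, 1 and 2 in mQ, and 5 and 4 in pQ.

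XBP1 had the largest fall by the median over conditions. At 5 h in the T arm, 15.3, 21.1 and 8.80% of the 0 h level of the same replicate was left in siCTU2, 8.26, 8.90 and 5.07% in siGL2, 8.59, 9.37 and 26.6% in mQ and 14.0, 14.2 and 10.5% in pQ cells. The high mQ value belongs to the replicate 3 library with extra genes. The log2 changes were -2.70, -3.75, -2.61 and -2.95 in that order (edgeR adjusted p from 9.29e-09 to 0.00029), and -3.66 in mQ without that library.

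HERPUD1 followed with 17.8, 16.6 and 7.94% left in siCTU2, 23.5, 18.5 and 19.3% in siGL2, 21.8, 29.0 and 21.2% in mQ and 25.6, 17.5 and 17.8% in pQ cells. Its log2 changes lay between -2.09 and -2.85, past the threshold in all 4 conditions. HSPA5 also passed in all 4, with smaller changes of -0.55, -0.56, -0.90 and -0.53. DNAJB9, a BiP co-chaperone, was left at 41.0, 44.3 and 2.62% in siCTU2, 25.1, 29.7 and 5.83% in siGL2, 10.8, 17.3 and 46.1% in mQ and 10.7, 1.74 and 0% in pQ cells. Replicate 3 stood apart in siCTU2, siGL2 and mQ, and mQ missed the threshold (-1.60, edgeR adjusted p = 0.086). TXNDC11 was left at 37.1, 51.6 and 5.45% in siCTU2, 63.0, 42.7 and 20.8% in siGL2, 37.2, 62.6 and 50.7% in mQ and 44.3, 31.9 and 12.9% in pQ cells, and also missed the threshold in mQ alone (-1.01, edgeR adjusted p = 0.0501).

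The smallest median falls were those of SDF2L1, SEC61A1, HSP90B1 and SSR1. HSP90B1 was left at 84.3, 90.6 and 57.9% in siCTU2, 91.7, 87.4 and 84.0% in siGL2, 120, 127 and 72.9% in mQ and 88.5, 72.0 and 77.8% in pQ cells. SSR1 was left at 73.7, 90.9 and 79.2%, then 76.6, 79.0 and 96.5%, then 68.9, 65.0 and 88.0%, and 84.2, 77.6 and 103% in the same order. SEC61A1 was left at 82.5, 84.2 and 94.7%, 78.2, 87.1 and 114%, 61.1, 50.8 and 65.2%, and 78.8, 75.4 and 116%. Replicate 3 was the highest for SEC61A1 in all 4 conditions and for SSR1 in 3, and the lowest for HSP90B1 in 3. SDF2L1 was left at 78.1, 91.6 and 139% in siCTU2, 55.4, 72.0 and 112% in siGL2, 38.7, 47.6 and 89.0% in mQ and 67.4, 78.9 and 156% in pQ cells. The median gene showed the opposite in siCTU2, siGL2 and pQ, with 35.1, 46.3 and 47.2% left in replicate 3 and 56.2 to 68.3% in replicates 1 and 2.

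**Figure D3:**
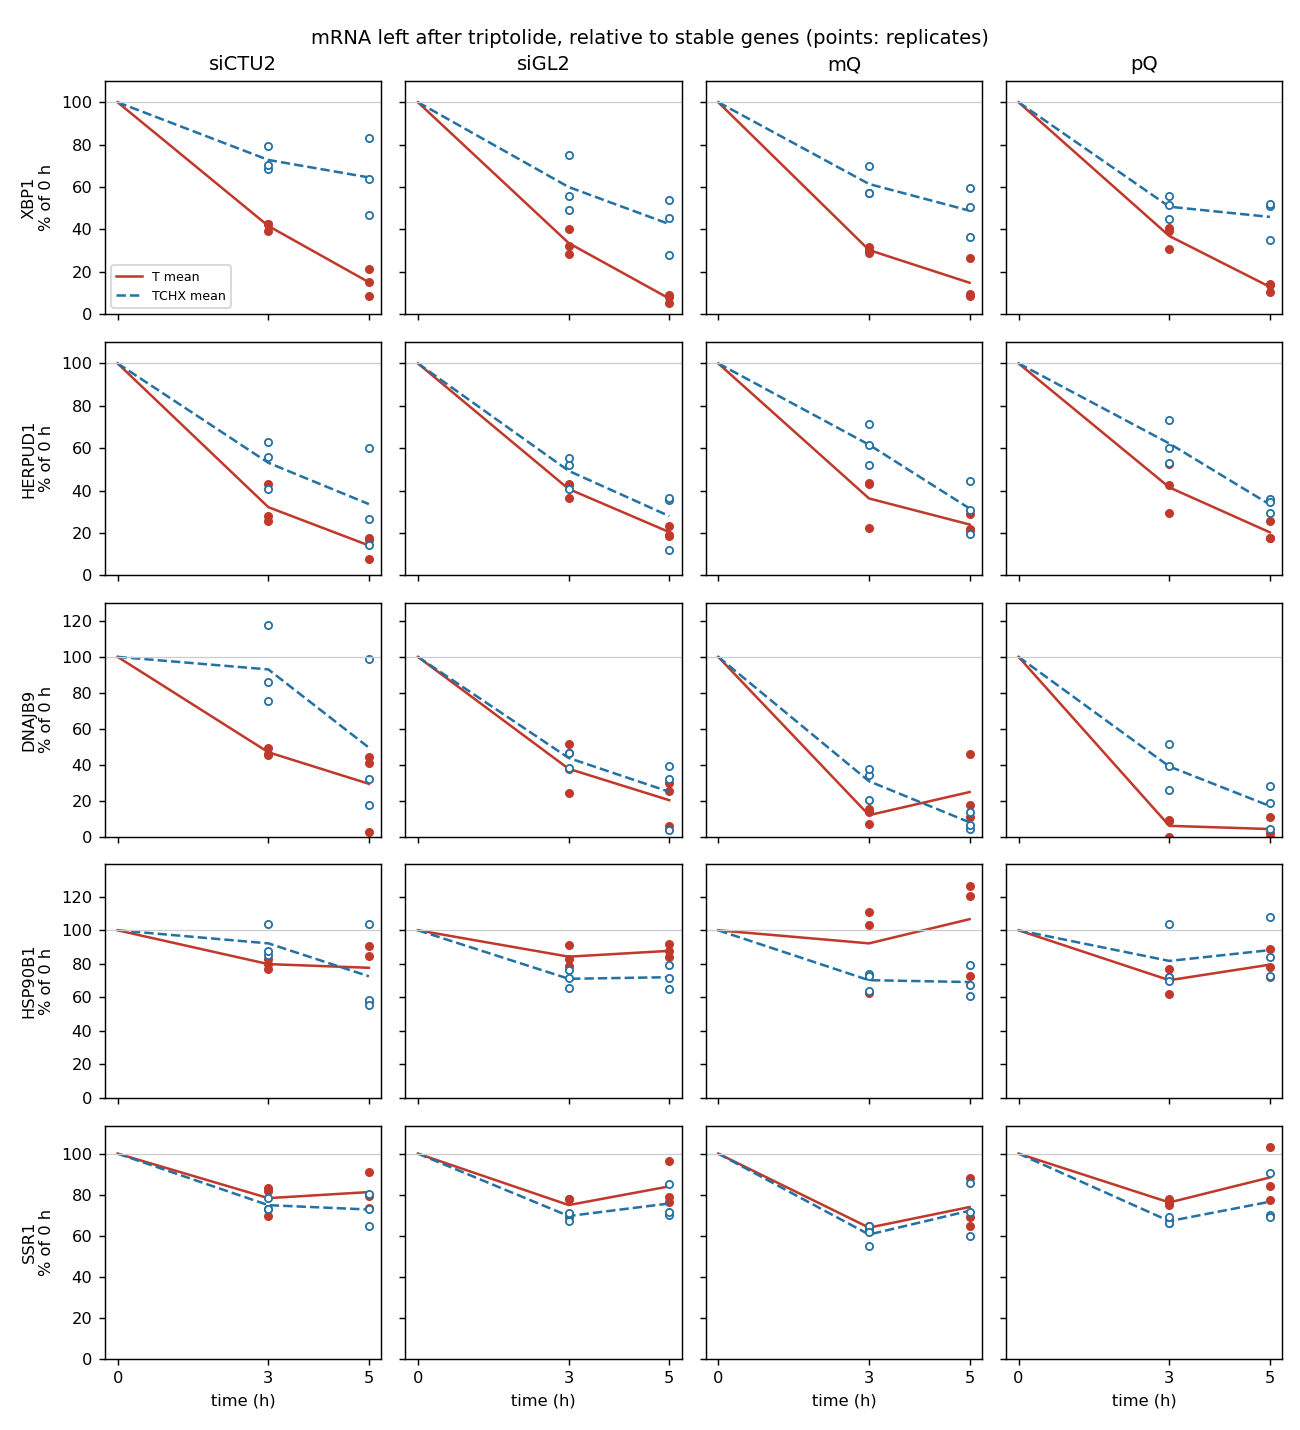
Percent of the 0 h level left at 3 and 5 h after triptolide for 5 members in the 4 conditions, relative to stable genes, with lines at the mean of 3 replicates and points for each replicate (filled and solid: T; open and dashed: TCHX). XBP1 falls to between 5.07 and 26.6% at 5 h in T and stays between 28.0 and 83.0% in TCHX, while SSR1 keeps 65.0 to 103% at 5 h in T.

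Without the 3 libraries with extra genes, 12, 6, 18 and 18 members were lower at 3 h and 23, 8, 15 and 13 at 5 h. Leaving out 1 replicate number moved these counts widely, and the share of all genes past the threshold in either direction moved as well. Without replicate 3 the members lower at 3 h were 16 in siCTU2, 18 in siGL2, 14 in mQ (1 more was higher) and 28 in pQ, and at 5 h 17, 15, 15 (4 more were higher) and 22. All genes past the threshold were then 43.2, 46.2, 56.8 and 63.2% at 3 h and 54.1, 52.8, 58.3 and 58.1% at 5 h. Without replicate 1 they were 0, 2, 8 and 5 at 3 h and 12, 3, 3 and 4 at 5 h, and without replicate 2 they were 5, 1, 6 and 3 at 3 h and 19, 3, 1 and 4 at 5 h. The shares of all genes were 8.38, 10.5, 28.9 and 24.3% at 3 h and 41.6, 31, 5.51 and 36.6% at 5 h without replicate 1, and 21.2, 9.4, 15.1 and 25.8% and 58, 28.6, 0.296 and 29.5% without replicate 2. The difference in decay between siCTU2 and siGL2, or between mQ and pQ, in the T arm at 3 h passed the threshold for 0 genes by edgeR (0% of 14266 and 0% of 14382), and at an unadjusted p under 0.05 for 413 and 374 genes, of which 0 and 1 were members. For CALR that difference was -0.42 (SE 0.51) and for PDIA3 -0.24 (SE 0.29) between siCTU2 and siGL2, neither past the threshold. Without replicate 3, 3 members passed between mQ and pQ.

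Cycloheximide was added to ask how far loss depends on translation. XBP1 was the member that retained more mRNA in the TCHX arm in all 4 conditions. Taking the mean of 3 and 5 h, the TCHX arm was higher than the T arm for 2 members in siCTU2 (XBP1 and ERN1), 1 in siGL2 (XBP1), 3 in mQ (HERPUD1, XBP1 and ERN1) and 3 in pQ (DNAJB9, HERPUD1 and XBP1), and no member was lower. With TMM scaling 2 were higher and 4 lower in siCTU2, and 1 was higher and 1 lower in siGL2. Of all genes, 20.9%, 12.1%, 5.02% and 12.1% were higher in these conditions. The median difference was 0.01, -0.08, -0.03 and -0.04 over the members and 0.22, 0.05, 0.05 and 0.06 over all genes. In the PERK and ATF4 list 8, 6, 7 and 6 of 9 genes were higher, with ATF4 at 1.07, 0.97, 0.87 and 0.86 and DDIT3 at 2.57, 2.64, 2.44 and 2.74.

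XBP1 in the TCHX arm at 5 h was left at 63.8, 46.8 and 83.0% in siCTU2, 45.6, 54.0 and 28.0% in siGL2, 59.6, 50.6 and 36.3% in mQ and 50.9, 51.8 and 35.0% in pQ cells, and every value lay above those of the T arm in the same condition. The siCTU2 value of 83.0% comes from the library that went against its label. The log2 difference between arms was 1.14 (SE 0.18) in siCTU2, 1.56 (SE 0.18) in siGL2, 1.41 (SE 0.27) in mQ and 1.23 (SE 0.14) in pQ, with edgeR adjusted p of 1.05e-04, 1.16e-05, 0.00918 and 5.91e-06. Without the 3 libraries with extra genes it was 1.08, 1.56, 1.93 and 1.23, past the threshold in each condition. In mQ, XBP1 missed the threshold without replicate 1 (1.20) and without replicate 2 (1.15). At 3 h alone it missed it in all 4 conditions (0.53, 0.72, 1.14 and 0.54). With the TCHX minus T difference at 0 h subtracted it passed in siCTU2, siGL2 and pQ (1.42, 1.68 and 1.15) but not in mQ (1.29).

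For HERPUD1 at 5 h, 26.6, 14.4 and 59.8% was left in the TCHX arm in siCTU2, 35.4, 36.3 and 12.2% in siGL2, 44.4, 30.7 and 19.5% in mQ and 29.2, 36.1 and 34.8% in pQ cells. These overlap the T arm in the first 3 conditions and lie above it in pQ. The siCTU2 value of 59.8% comes from the library that went against its label. The log2 difference over both times was 1.01 in mQ and 0.48 in pQ (edgeR adjusted p = 0.00207 and 0.0396), and 0.82 and 0.60 in siCTU2 and siGL2, which did not pass. It missed the threshold in mQ without replicate 1 (0.95) or 2 (0.97) and in pQ without replicate 1 (0.56) or 2 (0.39). ERN1 was higher in siCTU2 (1.16, edgeR adjusted p = 0.00561) and mQ (1.17, edgeR adjusted p = 0.0177). It missed the threshold in siCTU2 without replicate 1 (1.19) and in mQ without replicate 1 (1.17) or 2 (1.16). DNAJB9 was higher in pQ (2.02, SE 0.58, edgeR adjusted p = 0.0262), where 0 to 10.7% was left in the T arm at 5 h, and missed it without replicate 2 (1.71).

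**Figure D4:**
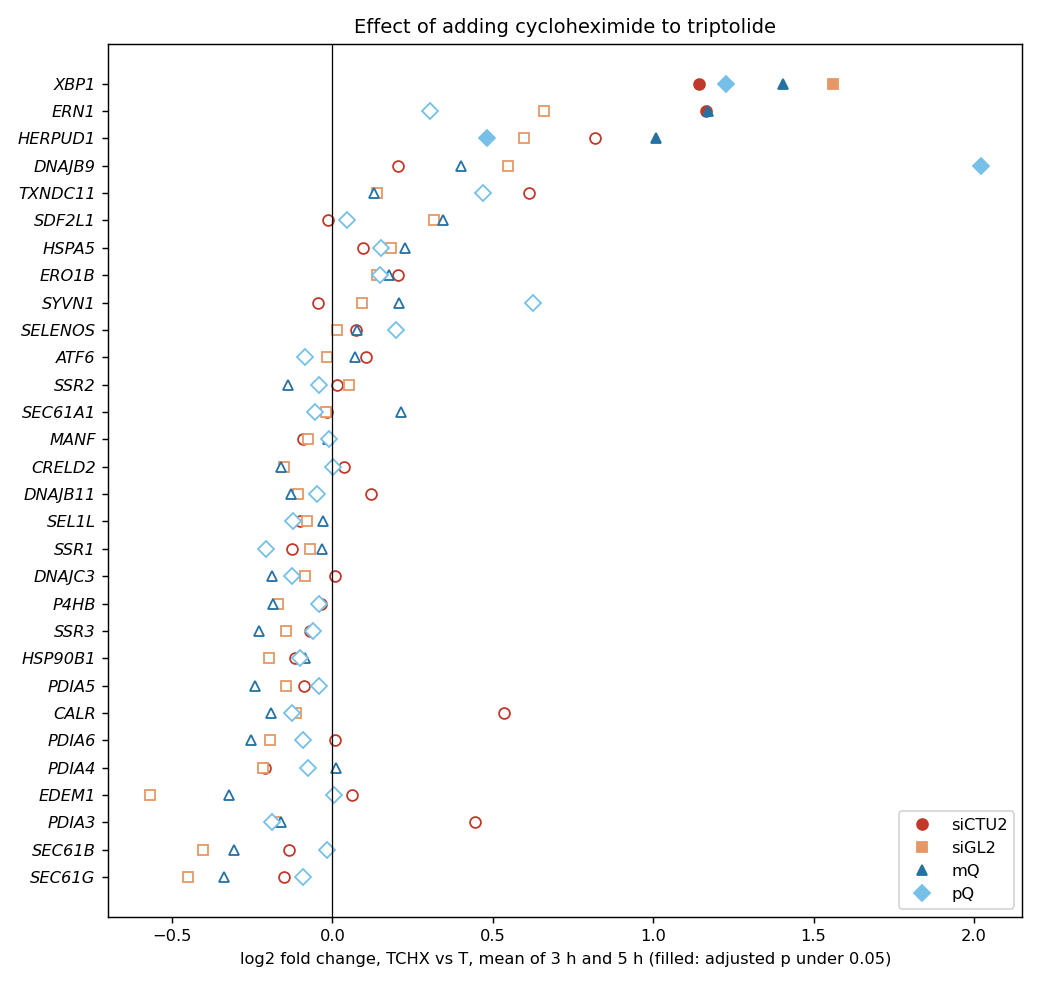
Log2 fold change of TCHX over T (mean of 3 and 5 h) for the 30 members in siCTU2, siGL2, mQ and pQ, ordered by their median, with filled symbols past the threshold. XBP1 is filled in all 4 conditions, from 1.14 to 1.56, and no member is filled on the left of 0.

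CALR and PDIA3 had log2 differences of 0.54 and 0.44 in siCTU2 and of -0.11 and -0.18 in siGL2, none past the threshold. In the siCTU2 library that went against its label CALR was at 167% and PDIA3 at 151% of their 0 h level, while the other TCHX 5 h libraries had 43.5 and 42.8% for CALR and 58.1 and 64.4% for PDIA3. The cycloheximide effect differed between siCTU2 and siGL2 for 0 members, beside 0.379% of 14266 genes, and between mQ and pQ for 0 members and 0% of 14382 genes (edgeR). At an unadjusted p under 0.05, PDIA3 differed in the first comparison (0.62, edgeR adjusted p = 0.239) and HERPUD1 (0.53) and ERN1 (0.87) in the second. Without replicate 3, 2 members passed in the second. The translation-dependent decay (TDD) index, the TCHX minus T normalised count divided by the 0 h count, was compared last, at an unadjusted p of at most 0.05 from a linear model. It was higher in siCTU2 for TXNDC11 (0.219 against 0.0359, adjusted p = 0.583) and lower for 0 members, beside 7.28% higher and 0.887% lower of 12288 genes. In siCTU2 at 5 h, TXNDC11 had 129, 195 and 22 counts in T and 213, 158 and 177 in TCHX. The 177 came from the library that went against its label. The index was higher in mQ for SSR1 (-0.0147 against -0.113), HERPUD1 (0.281 against 0.118) and ERN1 (0.539 against 0.124) and lower for 0 members, beside 3.48% higher and 1.3% lower of 12428 genes. None of these 4 passed after adjustment. In the medium experiment 0 members passed without replicate 1, 1 without replicate 2 and 6 without replicate 3, all of them higher. In the siRNA experiment, 1 member passed without replicate 1, lower in siCTU2, 2 without replicate 2, both higher, and 2 without replicate 3, 1 in each direction.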

How the data were processed

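The deposited values are raw counts per gene. The authors processed the reads with fastp 0.20.1, HISAT2 2.2.1 (GRCh38.p13) and HTSeq 0.13.5, per the labels; molecular identifiers were not mentioned, and PCR duplicates are therefore possible. CPM use library totals. Counts were tested in R 4.3.3 with edgeR 4.0.16 (filterByExpr, TMM, quasi-likelihood F-test, Benjamini-Hochberg over all genes, threshold 0.05, no replicate term; 6 libraries per 0 h contrast, 18 per time course, 36 for differences in decay or cycloheximide effect). Time courses were scaled to genes that rose by a factor of 1.1 or more in CPM from 0 h to either later time in every replicate and both arms, with a 0 h CPM over 0.2. The TDD index was fitted by linear models with condition, time and replicate as terms (12 values per gene, 0 h count at least 10). The siCTU2 0 h, pQ cycloheximide and siRNA TDD tests were checked on simulated counts without outlying libraries or stable-gene scaling. The decay tests were not checked this way. DESeq2 1.42.0, other scalings, filters and left-out libraries were tried. No pair of libraries was a duplicate. Values were named for up to 12 members past the threshold per 0 h contrast, HSPA5, XBP1, ATF6, ERN1, the 4 largest and 4 smallest falls, and members past the threshold with cycloheximide. From each pathway list, genes with the largest changes past the threshold were named. CALR and PDIA3 in the time courses, HSPA5 decay, ATF4, and DDIT3 with cycloheximide were named after values were seen. Members and lists were chosen with earlier results of these data known. Codons came from GENCODE coding sequences, promoters from RefSeq. Protein features were not analysed here.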

Additional observations from a re-analysis of the deposited data

How the results depend on the processing

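At 0 h, the siRNA count of 12 members stayed between 8 and 15 under DESeq2, DESeq2 size factors, no low-count filter, the replicate block and single left-out libraries, and was 19 with both arms together, an alternative chosen after seeing the data, where HSPA5 passed (0.12). The medium count of 12 was 4 in the TCHX arm. The replicate block gave 15 and 13. Deviations of same-numbered libraries at 0 h correlated at 0.08 to 0.26 in the siRNA experiment, above every differently numbered pair (-0.23 to 0.06), and at -0.15 to 0.11 in the medium experiment (-0.11 to 0.19), a hint of pairing in the first, though no source states a shared origin. Column headers gave same-numbered libraries of both experiments a common prefix, whose meaning is not stated. Directions turned for PDIA4 in the TCHX arm (-0.024 with siCTU2, 0.039 in mQ), EDEM1 in the mQ TCHX arm (0.34, and 0.019 without pQ replicate 3), ATF6 with siCTU2 (-0.035 to 0.062 over the left-out fits) and HSPA5 in mQ (-0.27 in the TCHX arm, -0.25 there without pQ replicate 3, -0.12 to 0.13 over the left-out fits, below 0 without mQ replicate 2 or pQ replicate 1, and -0.13, -0.12 and -0.20 with both arms). The difference of contrasts gave 7 to 14 with a replicate number left out.

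For decay, listed as siCTU2, siGL2, mQ and pQ, TMM gave 1, 2, 1 and 3 members at 3 h and 10 and 3 in siCTU2 and mQ at 5 h. Genes stable at both times (8 and 3 genes) gave 20, 18, 26 and 27 at 3 h and 20 and 26 in siGL2 and mQ at 5 h. The replicate block gave 15 in siGL2 at 5 h and 26 and 23 in pQ at 3 and 5 h, and no filter gave 18 in pQ at 5 h. Left-out replicates gave 0 to 16, 1 to 18, 6 to 15 and 3 to 28 at 3 h, and 12 to 19, 3 to 15, 1 to 19 and 4 to 22 at 5 h. For the cycloheximide effect, TMM gave 6 and 2 in siCTU2 (2 higher, 4 lower) and siGL2 (1 and 1), no filter 6 and 2, the block 2 in siGL2, genes stable at both times 5 in pQ (1 higher, 4 lower), 3 h alone 0, 0, 1 and 0, and the subtracted 0 h difference 1, 0 and 1 in siCTU2, mQ and pQ. Left-out replicates gave 1 to 3, 1 to 8, 0 to 5 and 1 to 4. The decay difference between mQ and pQ then ranged from 0 to 3 and the cycloheximide difference from 0 to 2. TDD counts were 2 and 6 under TMM, 14 in the medium experiment with each arm's own 0 h library, and 1 to 2 and 0 to 6 with left-out replicates; without the replicate block they were 1 and 3. The causes of these shifts were not tested. Genes under the low-count filter, such as HYOU1, were too shallow to compare.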
